A study of Mus musculus with 6 samples.

Results

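Hair bulbs that had lost Notch1 in the embryo, called emN1, were set against wild-type bulbs on 2 arrays each, out of 6 arrays in the series; the other 2, called anN1, were left out of the comparison. The emN1 follicles were taken from a skin area of the mouse where Notch1 was removed during embryonic life and carry no working Notch1. The wild-type follicles were labelled as wild-type with no further allele, and the anN1 follicles came from an area deleted in anagen, the growth phase, in which Notch1 was still working. All bulbs were collected at postnatal day 9, during the first hair growth phase, and total RNA was hybridised to one-colour oligonucleotide arrays. The sources used here give neither the agent and driver of the deletion nor the strain, the sex or the number of animals behind each array. The titles call the replicates biological without saying what was replicated. P-values therefore cover only the spread between these arrays, which may be technical. The members were all genes on autosomes, 17405 of the 18193 genes named on the array, and 12183 of them had a probe set bright enough to be tested. The emN1 replicate 1 array belonged to the first hybridisation set and the other 3 arrays to the second.

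Notch1 is a cell surface receptor that is cut after it binds a ligand on a neighbouring cell, and its inner part then joins the DNA-binding protein RBPJ to switch on genes of the Hes and Hey families. In the hair bulb, dividing matrix cells surround the dermal papilla and give rise to the inner root sheath and to the hair shaft, whose cortex and cuticle are built from hair keratins bound together by keratin-associated proteins. Notch1 is known in this tissue from the cells that leave the matrix to form the shaft. Melanocytes of the bulb feed pigment to the growing shaft, and Kit ligand made by neighbouring cells supports them.

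The results turn on hair shaft genes, of which 33 of 50 tested rose in emN1, and on pigment genes, of which 4 of 23 tested fell. Of all tested genes 0.952% rose and 0.156% fell. Some of the shaft genes were at background on both wild-type arrays and entered the test through emN1, as given below. The first 3 promoters below are of shaft genes. They are shown because most promoters of the shaft lists hold the TATA box letters TATAAA, which are capitalised. They lie at chr11:99993945-99994244 (minus strand), chr16:88728612-88728911 (plus strand) and chr11:100041505-100041804 (minus strand) of GRCm38.p6, from RefSeq, each from 250 bases before to 50 bases after the gene's start.
Krtap17-1: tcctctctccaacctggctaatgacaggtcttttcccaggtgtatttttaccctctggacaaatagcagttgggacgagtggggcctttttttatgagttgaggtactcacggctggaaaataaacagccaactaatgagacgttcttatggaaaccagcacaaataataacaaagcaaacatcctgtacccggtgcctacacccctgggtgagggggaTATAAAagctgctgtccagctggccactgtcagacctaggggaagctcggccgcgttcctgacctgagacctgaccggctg
Krtap13-1: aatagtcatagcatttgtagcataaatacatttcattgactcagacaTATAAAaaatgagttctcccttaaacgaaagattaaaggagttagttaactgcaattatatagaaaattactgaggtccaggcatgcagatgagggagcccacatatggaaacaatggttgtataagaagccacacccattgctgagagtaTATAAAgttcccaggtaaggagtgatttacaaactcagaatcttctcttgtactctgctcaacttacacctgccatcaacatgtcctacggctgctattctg
Krt34: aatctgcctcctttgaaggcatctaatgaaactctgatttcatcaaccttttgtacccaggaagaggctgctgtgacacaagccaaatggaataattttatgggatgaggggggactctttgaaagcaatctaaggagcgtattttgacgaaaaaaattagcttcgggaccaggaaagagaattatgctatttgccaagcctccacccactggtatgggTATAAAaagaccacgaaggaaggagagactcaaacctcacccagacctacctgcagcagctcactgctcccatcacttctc
The letters TATAAA start at -31 from the gene's start in Krtap17-1 and Krt34, and at -52 and -203 in Krtap13-1. Of the 50 tested genes on the hair shaft and keratin-associated lists, 42 had a promoter in the table, and 32 of these (76.2%) held TATAAA on either strand. Among 9836 tested autosomal genes with a promoter, 745 (7.57%) held it.

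A second trio comes from pigment genes, with the letters CATGTG capitalised. These are the core of the M-box, a sequence known to be bound by the melanocyte factor MITF. They lie at chr7:87493463-87493762 (minus strand), chr4:80833963-80834262 (plus strand) and chr7:64153585-64153884 (plus strand).
Tyr: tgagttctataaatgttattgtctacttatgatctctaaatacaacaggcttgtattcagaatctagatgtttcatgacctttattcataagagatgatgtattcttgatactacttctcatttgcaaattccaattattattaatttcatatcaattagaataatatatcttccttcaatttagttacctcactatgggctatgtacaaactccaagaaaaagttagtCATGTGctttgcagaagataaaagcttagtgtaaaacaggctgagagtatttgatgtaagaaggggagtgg
Tyrp1: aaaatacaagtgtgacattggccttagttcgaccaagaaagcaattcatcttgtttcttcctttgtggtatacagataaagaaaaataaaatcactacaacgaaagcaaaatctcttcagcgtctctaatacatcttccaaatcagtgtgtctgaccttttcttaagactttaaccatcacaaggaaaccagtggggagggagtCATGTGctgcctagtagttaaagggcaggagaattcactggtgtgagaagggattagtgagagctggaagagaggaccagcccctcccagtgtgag
Trpm1: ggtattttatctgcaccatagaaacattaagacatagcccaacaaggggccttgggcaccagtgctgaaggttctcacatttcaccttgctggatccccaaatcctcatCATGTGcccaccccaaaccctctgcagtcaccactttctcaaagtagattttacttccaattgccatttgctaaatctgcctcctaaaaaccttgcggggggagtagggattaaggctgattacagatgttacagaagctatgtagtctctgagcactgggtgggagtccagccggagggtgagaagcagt
The motif starts at -21 in Tyr, at -46 in Tyrp1 and at -141 in Trpm1. It was found on either strand in 7 of 17 melanocyte genes with a promoter in the table (41.2%), in 10 of the 42 shaft and keratin-associated genes (23.8%) and in 825 of the 9836 tested genes (8.39%). A match describes the letters in the window and is not a bound site.

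Signals are given in the authors' MAS5 units, in which every array had a trimmed mean of 1500. Undetected bacterial control probe sets had a median of 24.4, and their 95th percentile, 112, was taken as the background limit. The 9 hair bulb markers on the array were above that limit on all 4 arrays, and their summed signal was 496000 and 462000 in emN1 and 411000 and 425000 in wild-type. Xist, the X-inactivation RNA, was at 202 and 183 in emN1 and at 18400 and 12700 in wild-type, whereas the Y-linked Eif2s3y was at 14000 and 15900 in emN1 and at 32.2 and 5.35 in wild-type. The sex of the animals and the group therefore cannot be told apart in any result below; both anN1 arrays had the Eif2s3y and Xist pattern of emN1. The emN1 replicate 1 array stood apart in its actin 3' to 5' probe set ratio, 4.59 against 2.39 to 2.71 on the others. Its 18S rRNA signal was 102000 against 41300 to 50100. The Gapdh 3' to 5' ratio did not set it apart, at 4.79 against 4.9 to 5.45. The anN1 replicate 1 array, also of the first set, had ratios of 5.64 (actin) and 6.96 (Gapdh) and an 18S rRNA signal of 101000. The 2 emN1 arrays differed from each other by a median of 0.385 on the log2 scale and the wild-type arrays by 0.241. The part of sex in the differences could not be tested, and the values without emN1 replicate 1 do not bear on it. That of RNA quality and hybridisation set was not tested beyond those values, given beside the counts, and the fits with the array set as a term.

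More genes passed as higher than as lower in emN1. By limma's moderated test with Benjamini-Hochberg adjustment at 0.05, 116 of 12183 autosomal genes were higher in emN1 (0.952% of those tested) and 19 were lower (0.156%). The median difference over all 12183 genes was 0.007 on log2(signal + 17.8), and 50.8% lay above 0. The higher genes differed by 1.27 to 8.72, with a median of 2.80, and the lower genes by -1.23 to -4.81, with a median of -2.07. A second rule without a variance model asked that the nearest emN1 and wild-type arrays be at least 2-fold apart. It held for 316 genes higher in emN1 (2.59%) and 107 lower (0.878%), and all 135 genes past the test were among them. With emN1 replicate 1 left out, 27 genes were higher and 5 lower. With emN1 replicate 2 left out, 282 genes were higher and 212 lower, and over probe sets the lower ones were then the more numerous, 401 against 359. In both of these fits a lone emN1 array is assumed to vary like the wild-type arrays. Without the first or the second wild-type array, 111 and 110 genes were higher and 10 and 6 lower.

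**Figure D1:**
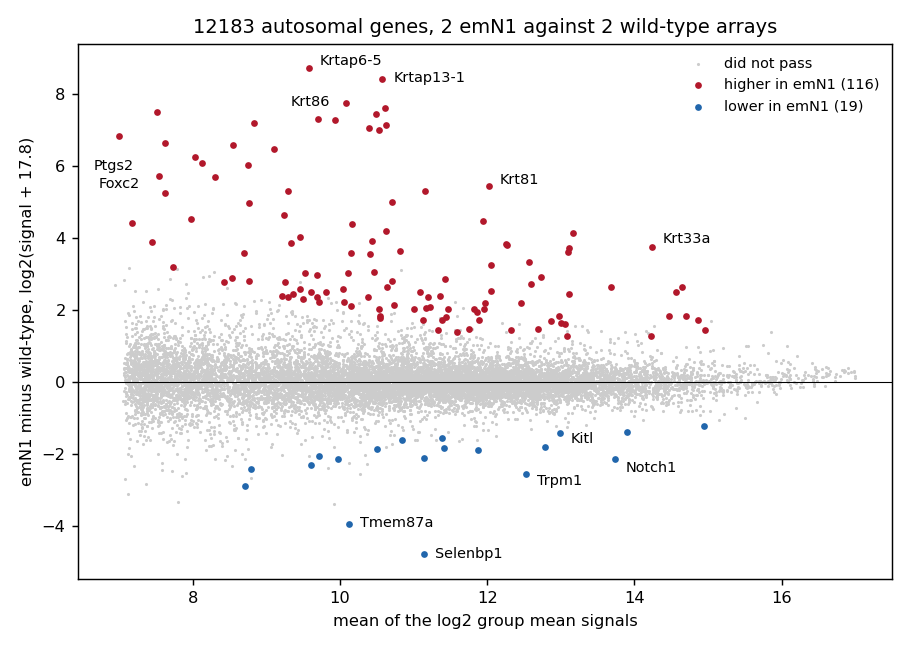
Difference between emN1 and wild-type on log2(signal + 17.8), plotted against the mean of the log2 group mean signals, for 12183 autosomal genes (1 point a gene, 2 arrays a group). The 116 genes higher in emN1 reach 8.72 and the 19 lower reach -4.81.

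Notch1 itself checked the labels. Its brightest probe set was at 6498 and 6292 in emN1 and at 23750 and 34070 in wild-type. Both emN1 arrays lay well below both wild-type arrays, and the difference was -2.15 ± 0.22 (SE, n = 2 and 2; limma adjusted p = 0.0161), or 0.225 times the wild-type level. The call was lost without emN1 replicate 1, where the difference was -2.17 (limma adjusted p = 0.0863). A second Notch1 probe set read 821 and 1561 in emN1 and 2833 and 3720 in wild-type, a difference of -1.50 that did not pass (limma adjusted p = 0.178). All Notch1 signals in emN1 were above the background limit. The sources used here do not give the deleted exons, so it is not known whether either probe set lies inside the deleted part. The probe set CreX-3 for the Cre recombinase, an enzyme used for conditional deletion, read 434 and 409 in emN1 and 62.4 and 79.0 in wild-type. CreX-5, toward the other end of the transcript, was under the background limit on all 4 arrays, at 71.1 and 101 in emN1 and 3.12 and 4.25 in wild-type.

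Elsewhere in the pathway few genes passed. Of 23 tested receptors, ligands and processing genes, Notch1 alone passed. Their median difference was -0.15. Jag1, a ligand, read 16000 and 16400 in emN1 against 30140 and 26840 in wild-type, a difference of -0.81 (limma adjusted p = 0.128). Notch2 overlapped between groups, at 7159 and 11730 in emN1 and 12840 and 9218 in wild-type, and Rbpj read 5531 and 5399 against 4585 and 4575. Neither passed.

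Among 16 tested Notch target and feedback genes, none passed by its brightest probe set, and 6 lay above 0 and 10 below; 6 had an unadjusted limma p under 0.05, as did 12.9% of all tested genes. Heyl, a Hey-family repressor, had 2142 and 2648 in emN1 and 5479 and 5834 in wild-type, at least 2-fold apart, with a difference of -1.24 ± 0.20 (SE, n = 2 and 2; limma adjusted p = 0.0709). Nrarp, a feedback inhibitor of Notch, read 11180 and 13520 in emN1 and 24710 and 26300 in wild-type. That difference, -1.05, did not pass (limma adjusted p = 0.0810), while its second probe set, at 1155 and 1370 against 3996 and 4244, did (-1.70; limma adjusted p = 0.0361). Hes1, a classical target, was at 3507 and 4098 in emN1 and 4878 and 5022 in wild-type. Its difference of -0.38 was not past the threshold (limma adjusted p = 0.544). The target genes Hes6, Trp63, Cdkn1a and Hey1 overlapped between groups.

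Keratin-associated proteins, the matrix that glues keratin filaments of the hair, were the list with the most genes that rose. Of 38 such genes on the array, 23 rose in emN1, 7 did not pass and 8 were too dim to be tested. Of all tested genes 0.952% rose. For 13 of the 30 tested genes both wild-type arrays lay under the background limit, so those genes entered the test through emN1, and the counts are a description. Krtap17-1 was at 17980 and 15770 in emN1 and at 107 and 108 in wild-type, where both values were under the limit. The level in emN1 was at least 151-fold higher. Krtap6-5 read 13670 and 25980 in emN1 and 45.3 and 13.7 in wild-type, at least 169-fold higher. Both genes were at background in wild-type and bright in emN1.

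Krtap13-1 read 30800 and 28980 in emN1 against 119 and 37.2 in wild-type. The second wild-type value was under the limit, so these values are a description. At the other end, Krtap11-1 was already bright in wild-type, at 10830 and 9705, and rose to 72800 and 55750, a 6.21-fold difference (limma adjusted p = 0.00464). Krtap8-1 read 96240 and 93830 in emN1 and 31210 and 42220 in wild-type. It was at least 2-fold apart but did not pass (1.39; limma adjusted p = 0.0575). Only Krtap28-13 of the 30 lay below 0, with 171 and 147 in wild-type and 121 and 137 in emN1. Chromosome 16 holds 14 of the genes that rose and chromosome 11 the other 9. Close family members can share probe sequence, so the value of a single member is uncertain. With emN1 replicate 1 left out, 12 members of the list were past the threshold.

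Hair keratins themselves were next. Of 20 tested shaft keratins and other cortex and cuticle genes, 10 rose and 1 fell, and the median was 1.49. Of all tested genes 0.952% rose and 0.156% fell, and their median was 0.007. Krt86, Krt81 and Krt83 are type II hair keratins of the cortex. Krt86 read 14260 and 20090 in emN1 against 103 and 32.7 in wild-type, at least 151-fold higher, and entered the test through emN1 alone. Krt81 read 26610 and 29240 against 624 and 619, a difference of 5.45 ± 0.18 (SE, n = 2 and 2; limma adjusted p = 0.000445). Type I hair keratins, which pair with these, were higher as well. Krt34 read 21110 and 17830 in emN1 against 48.2 and 165 in wild-type. The first wild-type value was under the limit, so these values are a description. Krt33a read 76980 and 64640 in emN1 against 4711 and 5788 in wild-type, 13.5-fold higher (limma adjusted p = 0.00156). Krt31 read 63140 and 52240 against 10750 and 9626, 5.64-fold higher (limma adjusted p = 0.00449). Krt32 and Krt82, keratins of the cuticle, rose 6.19-fold and 3.56-fold.

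Krt35, made in the matrix and precortex, did not pass. It read 40610 and 45250 in emN1 and 65640 and 60190 in wild-type, a difference of -0.55 (limma adjusted p = 0.335). Krt36 read 2878 and 4857 in emN1 and 2499 and 2185 in wild-type (0.67; limma adjusted p = 0.488). Leaving out emN1 replicate 1 left 5 genes of the list higher and 1 lower. The gene that fell was Selenbp1, which encodes a selenium-binding protein. It read 554 and 295 in emN1 and 9800 and 14230 in wild-type, 0.0342 times the wild-type level (limma adjusted p = 0.00449), and its second probe set fell too (-4.50; limma adjusted p = 0.00464).

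**Figure D2:**
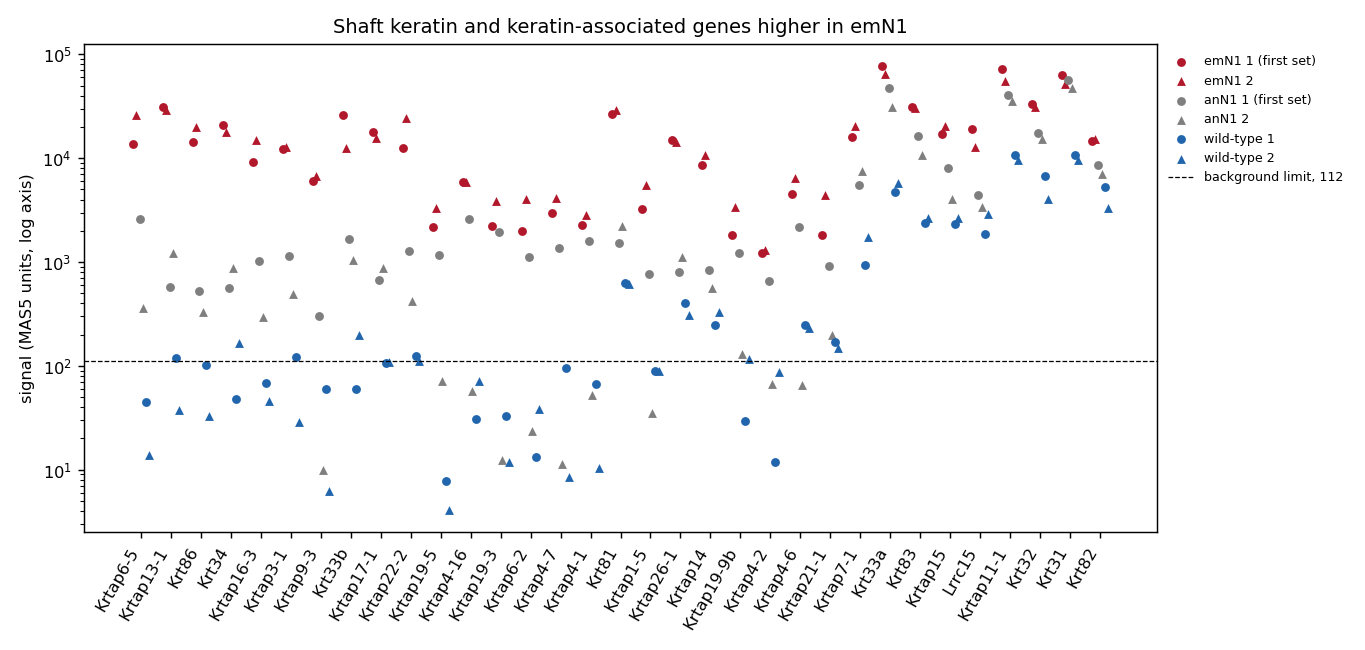
Signal on each of the 6 arrays (log axis) for the 33 genes of the shaft keratin and keratin-associated lists that rose in emN1, ordered by difference; no error bar is drawn because every array is a point. Each emN1 array lies above each wild-type array, and the anN1 arrays often lie between them.

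Few genes of the hair matrix transcription factor and inner root sheath lists passed, which does not show that the rest were unchanged. None of 25 tested matrix factors passed, 7 of them with an unadjusted limma p under 0.05. Hoxc13, a regulator of hair keratin genes, was at 4426 and 7217 in emN1 and 6466 and 5475 in wild-type. Foxn1, which drives shaft differentiation, read 7662 and 5431 against 4564 and 3979 (0.60; limma adjusted p = 0.437). Of 21 inner root sheath genes 2 rose, against 0.952% of all tested genes, and the list median was 0.10. Krt26 read 11770 and 13710 in emN1 and 1916 and 923 in wild-type, 9.55-fold higher (limma adjusted p = 0.0193). Cst6, a protease inhibitor, was 7.14-fold higher (limma adjusted p = 0.0256). The main sheath keratins did not pass: Krt71 read 123400 and 107500 in emN1 and 79360 and 99000 in wild-type (0.38; limma adjusted p = 0.574), and Tchh, the sheath protein trichohyalin, overlapped between groups at 42100 and 55470 against 49470 and 43990. None of the sheath genes passed without emN1 replicate 1.

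Genes of the outer sheath and of the cornified layers included some that rose. Of 25 outer root sheath, companion layer and basal genes 3 rose, against 0.952% of all tested genes. Krt15, a keratin of basal and bulge cells, read 47210 and 38970 in emN1 and 11280 and 12800 in wild-type, 3.57-fold higher (limma adjusted p = 0.0161). Krt16 and Krt6a are keratins that appear in stressed epidermis and in the companion layer and outer sheath. Krt6a was 5.94-fold higher (limma adjusted p = 0.0494). Krt16 read 1217 and 1763 in emN1 and 63.3 and 168 in wild-type. The first wild-type value was under the limit, so the Krt16 values are a description. Krt5 and Krt14, the basal pair, did not pass, with differences of 0.53 and 1.25. When emN1 replicate 1 was left out, 1 of the 25 passed.

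Of 20 epidermal differentiation genes 4 rose and 17 lay above 0, against 0.952% and 50.8% of all tested genes. Calm4, a calmodulin-like protein of differentiating keratinocytes, read 39460 and 25300 in emN1 and 1848 and 3019 in wild-type, 13.4-fold higher (limma adjusted p = 0.00718). Klk7, a protease that frees cells from the cornified layer, rose 5.45-fold. Sprr1b and Ivl, precursors of the cornified envelope, rose at least 7.17-fold and 4.09-fold. Both wild-type values of Sprr1b, 42.0 and 32.8, were under the background limit. It entered the test through emN1 alone, so its values are a description. Lor, the main envelope protein of the epidermis, had the other sign, at 891 and 561 in emN1 and 1449 and 1631 in wild-type, and did not pass (-1.10; limma adjusted p = 0.272). The 6 epidermal markers summed to 11000 on each emN1 array and to 5940 and 6600 in wild-type. Ivl, already counted above, is one of them, at 6990 and 7640 in emN1 against 2030 and 1570 in wild-type. The sum is therefore not separate from the Ivl result. Of the 6, Lor was lower in emN1, Krt10 overlapped between groups, and 3, Krt1, Krt2 and Flg, were too dim to be tested. The part of epidermal cells in the result was not tested. Only 1 of the 20 passed without emN1 replicate 1.

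Of 23 tested melanocyte genes 4 fell in emN1, none rose, 3 lay above 0 and 9 were at least 2-fold apart and lower. Over all tested genes 0.156% fell, 50.8% lay above 0 and 0.878% were at least 2-fold apart and lower. The list median was -1.07 against 0.007 over all genes. Both emN1 arrays lay below both wild-type arrays for 19 of the 23, and for 23.0% of all tested genes. Trpm1, a cation channel made by melanocytes, read 2092 and 2741 in emN1 and 14070 and 14510 in wild-type, 0.168 times the wild-type level (-2.57 ± 0.20, SE, n = 2 and 2; limma adjusted p = 0.00547). Its 3 other probe sets had the same sign, from -0.73 to -1.22, and did not pass. Oca2, a melanosome transporter, read 3487 and 4016 against 13420 and 12930 (-1.81; limma adjusted p = 0.0148).

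The enzymes of melanin synthesis followed. Tyrosinase, Tyr, the rate-limiting step, read 9219 and 9531 in emN1 and 23470 and 26100 in wild-type, 0.379 times (limma adjusted p = 0.0301). Tyrp1, the tyrosinase-related protein, read 22010 and 19370 against 49880 and 46900, 0.427 times (limma adjusted p = 0.0491). Both have the capitalised motif printed above. Dct read 37340 and 28570 against 61310 and 69530 and did not pass (-0.999; limma adjusted p = 0.125). Mitf, the factor that governs the lineage, did not share the direction, at 7823 and 5904 in emN1 and 6183 and 5731 in wild-type (0.19; limma adjusted p = 0.791). Sox10, another lineage factor, read 236 and 586 against 1811 and 2270 (-2.38; limma adjusted p = 0.103). In bulk bulbs, fewer cells of a type and less RNA per cell cannot be told apart. The 5 melanocyte markers, which include Tyr and Tyrp1, summed to 103000 and 86700 in emN1 and 198000 and 215000 in wild-type. The count was 2 of 23 without emN1 replicate 1.

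Kit ligand, Kitl, was the gene on the melanocyte supply list that fell. It read 5187 and 4721 in emN1 and 14050 and 12380 in wild-type, with no overlap, 0.375 times the wild-type level (-1.41 ± 0.18, SE, n = 2 and 2; limma adjusted p = 0.0362). A second bright probe set read 508 and 581 against 1837 and 1795 (-1.71; limma adjusted p = 0.0601). Of 2 dimmer probe sets, 1 overlapped between groups (-0.82; limma adjusted p = 0.695). The other was lower without passing (-1.13; limma adjusted p = 0.561). The Kitl receptor Kit was at 3090 and 2924 in emN1 and at 4468 and 4541 in wild-type (-0.58; limma adjusted p = 0.335). Kitl was not past the threshold without emN1 replicate 1.

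**Figure D3:**
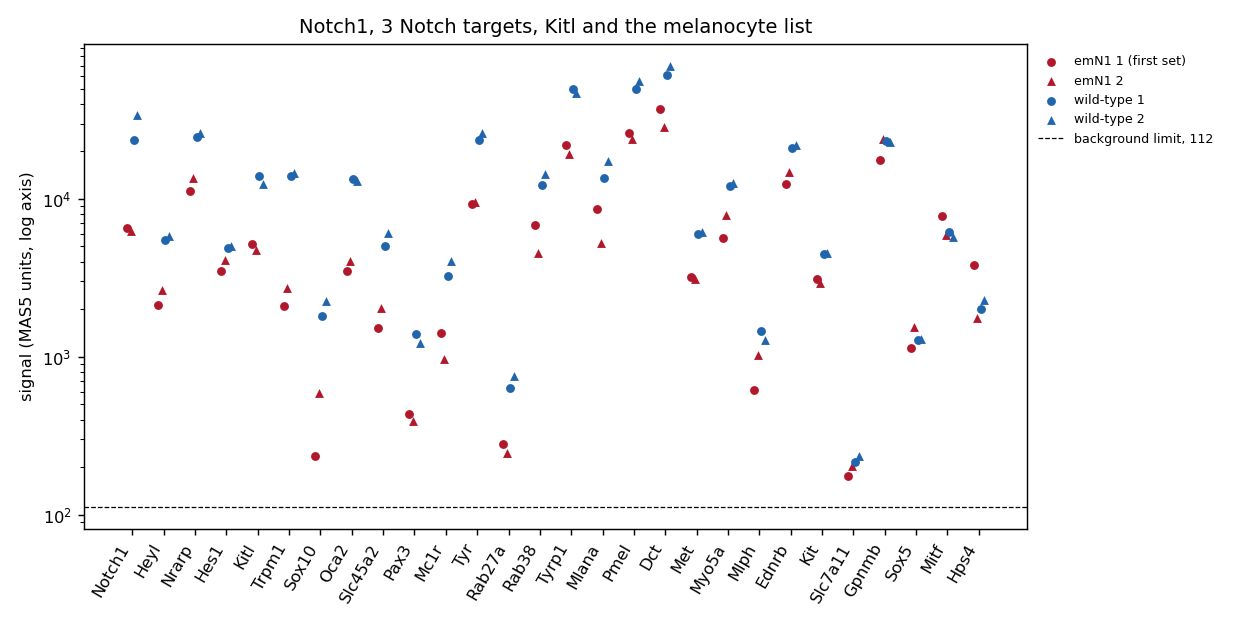
Signal on each emN1 and wild-type array (log axis) for Notch1, 3 Notch target genes, Kitl and the 23 melanocyte genes ordered by difference. Both emN1 arrays lie below both wild-type arrays for Notch1, Kitl and 19 of the 23 melanocyte genes; Mitf overlaps.

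Immune and connective tissue genes lay mostly above wild-type. Of 23 tested macrophage, Langerhans and other immune genes 3 rose, 10 were at least 2-fold apart and higher, and 22 lay above 0. The shares over all tested genes were 0.952%, 2.59% and 50.8%. The list median was 1.35, or 1.00 with signals raised to the background limit. Csf1r, the macrophage growth factor receptor, read 2566 and 2208 in emN1 and 298 and 274 in wild-type, 8.33-fold higher (limma adjusted p = 0.0113). Of its 2 other probe sets, one read 662 and 836 against 161 and 174 and did not pass (2.04; limma adjusted p = 0.0854), and the other overlapped between groups (0.52; limma adjusted p = 0.682). Lyz1, a lysozyme, was 16.2-fold higher (limma adjusted p = 0.0105). Mrc1, the mannose receptor, read 993 and 923 in emN1 and 111 and 138 in wild-type. The first wild-type value was under the limit, so the Mrc1 values are a description. The 5 macrophage markers, which include Csf1r, summed to 4170 and 3720 in emN1 and to 769 and 814 in wild-type. Of the 5, 3 were over the background limit on all 4 arrays. Cd68 read 393 and 531 against 172 and 156 and did not pass (1.39; limma adjusted p = 0.265). Without emN1 replicate 1, none of the 23 passed, with a median of 1.31.

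Among 32 fibroblast and matrix genes Col5a2, a fibrillar collagen chain, rose (3.14-fold, limma adjusted p = 0.0365). Of the 32, 8 were at least 2-fold apart and higher and 28 lay above 0, with a median of 0.76. Over all tested genes 0.952% rose, 2.59% were at least 2-fold apart and higher and 50.8% lay above 0. Fibroblast markers summed to 75100 and 66600 in emN1 and 51100 and 64100 in wild-type. Of 12 endothelial, pericyte and smooth muscle genes the contractile genes Tagln and Acta2 rose. Acta2 read 30580 and 28650 against 12320 and 12210, 2.41-fold higher (limma adjusted p = 0.0373), and Tagln was 3.34-fold higher (limma adjusted p = 0.0339). Further probe sets of Col5a2, Lyz1, Ivl, Krt6a, Igfbp3 and Igfbp7 had the sign of those given here and did not pass. None of the 4 endothelial markers, Pecam1, Cdh5, Kdr and Emcn, was above the limit on all 4 arrays. Summed dermal papilla markers overlapped between groups, at 22200 and 21700 in emN1 against 23200 and 21900 in wild-type. Among them Vcan was higher on both emN1 arrays, at 3280 and 3540 against 1650 and 1890. Wif1 was lower on both, at 11200 and 12100 against 15300 and 14400. Only 3 of the 5 markers were over the background limit on all 4 arrays. None of 21 papilla genes passed, 8 of them with an unadjusted limma p under 0.05. Whether the number of cells of these kinds differed between dissections was not tested. Without emN1 replicate 1, none of these fibroblast and contractile genes passed.

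**Figure D4:**
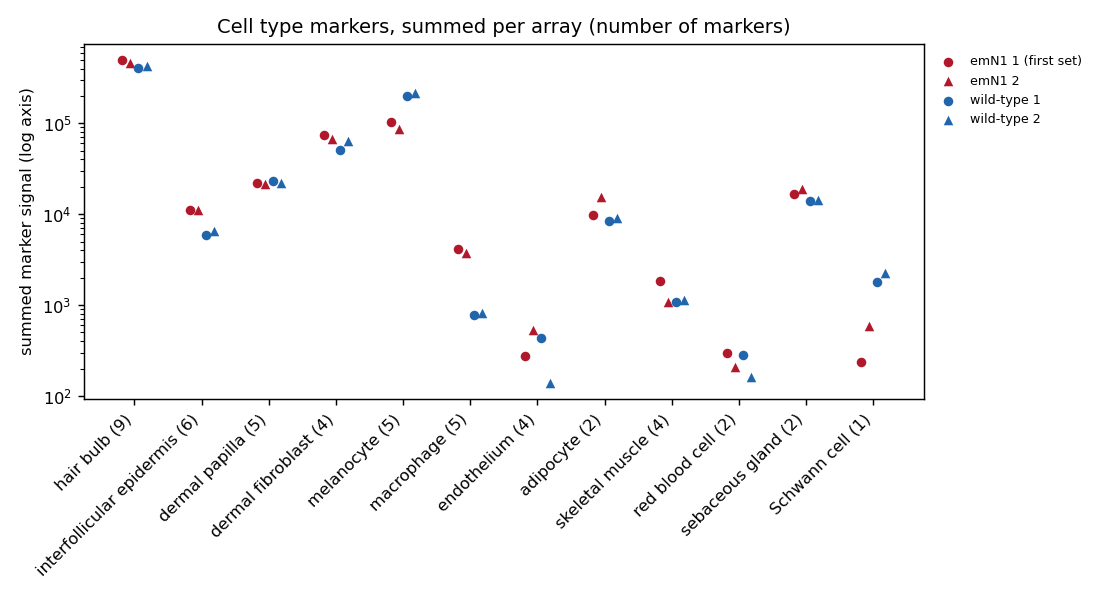
Summed signal of the markers of 12 cell types on each emN1 and wild-type array (log axis; number of markers in brackets). Macrophage markers were at 4170 and 3720 in emN1 and 769 and 814 in wild-type, melanocyte markers at 103000 and 86700 against 198000 and 215000, and the dermal papilla sums overlapped.

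Secreted growth factors and their partners included several that rose. For the counts of these lists, 0.952% of all tested genes rose and 0.156% fell. Igfbp3, a binding protein of insulin-like growth factors, read 4278 and 6306 in emN1 and 908 and 886 in wild-type, 5.79-fold higher (limma adjusted p = 0.0165). Igfbp2 and Igfbp7 rose 4.51-fold and 3.33-fold, so 3 of the 18 genes of that list passed. Among 24 genes of the FGF and EGF families, the EGF receptor ligands Epgn and Ereg rose. Epgn read 4950 and 4460 against 980 and 1267, 4.22-fold higher (limma adjusted p = 0.0231), and Ereg was 3.32-fold higher (limma adjusted p = 0.0365). Of 40 Wnt pathway genes only Sfrp1, a secreted Wnt antagonist, passed, and it fell. It read 694 and 814 in emN1 and 2583 and 3016 in wild-type, 0.269 times (limma adjusted p = 0.0388), and its 3 other probe sets were lower without passing. None of 34 BMP and TGF-beta genes and none of 14 Hedgehog genes passed, with 9 and 5 at an unadjusted limma p under 0.05. Without emN1 replicate 1, 1 of the insulin-like growth factor genes and none of the others in these lists passed.

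None of the cell division genes passed, and 8 had an unadjusted limma p under 0.05. The 45 S phase and mitosis genes had differences from -0.75 to 0.19 with a median of -0.24, and 37 lay below 0, against 49.2% of all genes. Both emN1 arrays lay below both wild-type arrays for 25 of the 45, and for 23.0% of all tested genes. Mki67, the proliferation marker, read 45130 and 41400 in emN1 and 39460 and 38390 in wild-type (0.15; limma adjusted p = 0.796). Mad2l1, a spindle checkpoint protein, read 10620 and 9089 against 14710 and 14230 (-0.56; limma adjusted p = 0.330). None of 25 cell cycle inhibitors and p53 targets passed, with 6 at an unadjusted limma p under 0.05. S100a8, a calcium-binding alarmin, was the only one of 18 interferon and cytokine response genes to rise, 3.48-fold (limma adjusted p = 0.0494), and Elovl3, an enzyme of long fatty acid synthesis, the only one of 12 sebaceous gland genes, 12.5-fold (limma adjusted p = 0.00336). Elovl3 read 4042 and 3969 in emN1 against 314 and 327 in wild-type. Neither gene passed without emN1 replicate 1. No gene passed on the immediate early (21 tested), adipocyte (12), Schwann cell (8), skeletal muscle (6) or red blood cell (3) lists by limma; 5, 4, 5, 0 and 0 of them had an unadjusted p under 0.05.

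**Figure D5:**
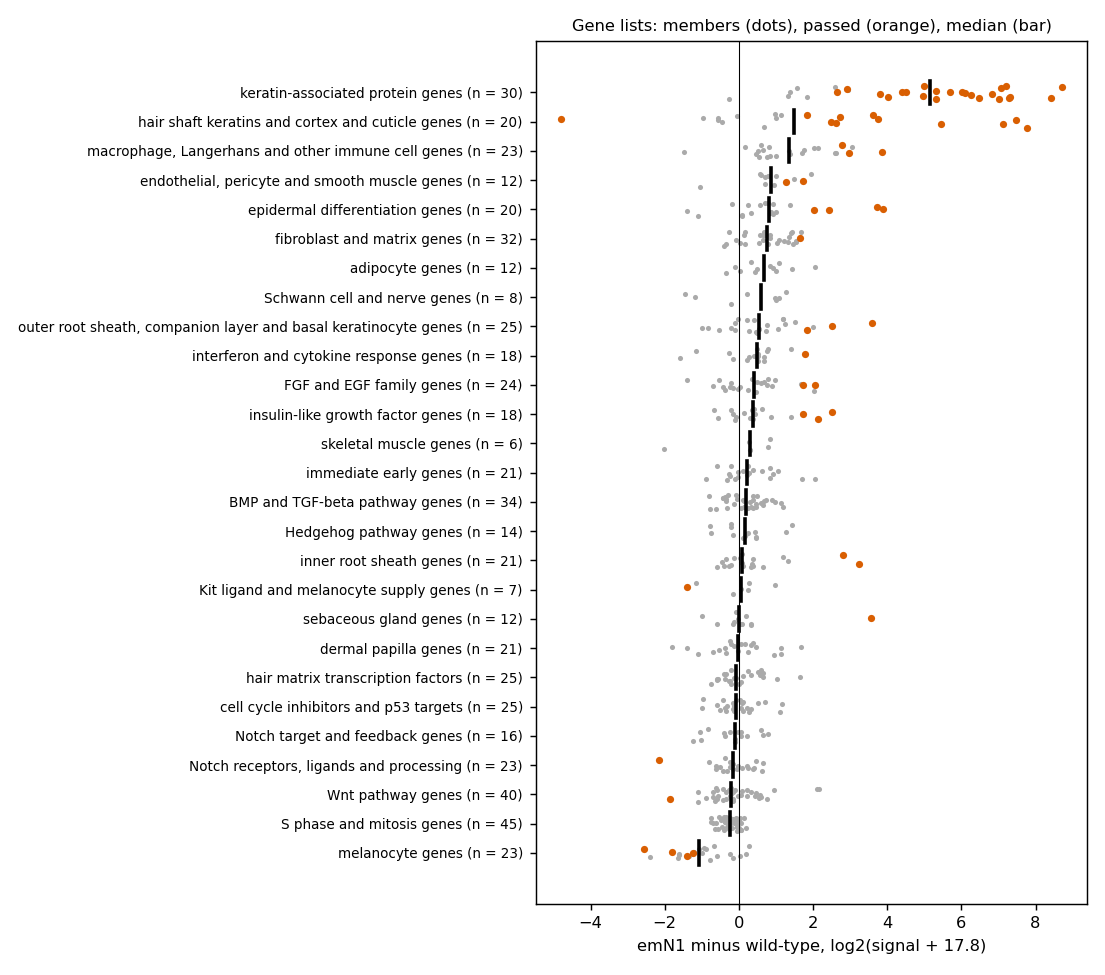
Differences of the tested genes of 27 lists (1 dot a gene, orange where it passed the limma threshold, bar at the median), on log2(signal + 17.8). The keratin-associated list has its median at 5.16 (4.39 with signals raised to the background limit of 112) and the melanocyte list at -1.07.

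Of the genes that passed, 61 higher and 11 lower ones were on no list. Ptgs2, the inducible enzyme of prostaglandin synthesis, read 1584 and 2175 in emN1 and 9.35 and 27.9 in wild-type, under the background limit, at least 16.6-fold higher. Foxc2, a forkhead transcription factor, read 1709 and 1474 against 22.6 and 26.1, at least 14.2-fold higher. Both genes entered the test through emN1 alone, so their values are a description. Lrat, which makes retinyl esters for storage, read 5804 and 8163 in emN1 and 377 and 341 in wild-type, 19.2-fold higher (limma adjusted p = 0.00272). Mgp, an inhibitor of calcification, was 10.2-fold and Procr, the protein C receptor, 13.0-fold higher (limma adjusted p = 0.0192 and 0.0172). Crct1 and Psors1c2, genes of cornifying epithelium, were 17.9-fold and 22.6-fold higher. The predicted gene Gm10229 on chromosome 16 read 18360 and 26920 in emN1 against 52.3 and 165 in wild-type. The first wild-type value was under the limit. Gm10228, at 2.82 and 11.3 in wild-type, was at least 40.1-fold higher. The values of both predicted genes are a description.

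On the lower side, Tmem87a, a membrane protein gene, read 322 and 225 in emN1 and 3482 and 5586 in wild-type, 0.0611 times the wild-type level (limma adjusted p = 0.00776). Dach1, a transcription cofactor, read 1731 and 2154 against 7193 and 7356, 0.265 times (limma adjusted p = 0.0189). Cfap54, a ciliary protein gene, was at 0.226 times (limma adjusted p = 0.0143). Mybpc1, Gsta2, Tgm2, Mamdc2 and Jakmip2 were at 0.172, 0.193, 0.217, 0.230 and 0.119 times the wild-type level. Each of these had both emN1 arrays below both wild-type arrays by its brightest probe set. A second Mybpc1 probe set overlapped between groups (-0.50; limma adjusted p = 0.8). The emN1 values of Mybpc1, 184 and 183, and of Jakmip2, 195 and 102, were near the background limit.

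Of all genes tested between the anN1 and wild-type arrays in a 3-group limma fit with the array set as a term, 12 (0.0985%) passed, 10 higher and 2 lower in anN1. The 13 probe sets behind them became 0 without either anN1 array (796 and 1156 at an unadjusted limma p under 0.05), 97 and 60 without a wild-type array, and 0 with no intensity trend (974). Both comparisons share the wild-type arrays, so their values are given side by side only. Of the 12, 11 also passed between emN1 and wild-type and lay on the same side. Krt31 read 57070 and 46990 in anN1, near emN1, and Krt33a 47310 and 31220, between the groups. Gprc5d, a receptor of the hair cortex, read 17170 and 20250 in emN1, 6671 and 7778 in anN1 and 1287 and 1277 in wild-type. Selenbp1 read 931 and 467 in anN1 and Tmem87a 89.2 and 143, both as low as or near emN1. In anN1 Trpm1 read 12250 and 15220, on either side of its wild-type values, while Tyr, at 29670 and 31380, and Kitl, at 15910 and 15900, were above theirs on both arrays. Notch1 read 15080 and 12530, between emN1 and wild-type. Of the 30 tested keratin-associated genes, 18 had both anN1 arrays above wild-type and below emN1, as did 411 of all 12183 tested genes (3.37%).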

How the data were processed

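Total RNA from hair bulbs at postnatal day 9 was measured on 6 one-colour arrays of 45101 probe sets. The deposited values are a linear intensity per probe set; the submitters' processing notes name MAS5, and the sources used here give no version or settings. No detection calls were used.

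Names came from the platform annotation (34958 with 1 gene symbol, 932 with several, 9211 with none), and 34754 matched GRCm38.p6 by gene identifier. Differences were taken on log2(signal + 17.8), where 17.8 is the 10th percentile over every value; this understates changes of dim genes. The brightest 60% of probe sets by mean over the 4 arrays, 27022, were tested 2 emN1 against 2 wild-type with limma 3.58.1 in R 4.3.3 (eBayes with an intensity trend, two-sided, 2 residual and 4.30 prior degrees of freedom). P-values were adjusted over all kept probe sets at 0.05, and the script was tested on simulated data. There it found 0.8% of log2 changes of 1, 33% of changes of 2 and 84.2% of changes of 4. A gene that did not pass may therefore still differ. A gene was its brightest kept probe set; among 43 called genes with several, 3 had one of opposite sign and 0 one called the opposite way. Folds are ratios of geometric mean signals, and "at least" sets the dim group at 112, the 95th percentile of 120 control values. The number of arrays limits the precision.

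Genes named by rule were Notch1, the 12 largest differences each way, up to 5 of each list and up to 5 each way shared with anN1; others were picked after their values were seen. The members and lists were chosen with earlier results of these data known. Alternatives covered the trend, addend, filter, normalization, array set, replicate block and each array left out. Figures were drawn with matplotlib 3.10.9.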

Additional observations from a re-analysis of the deposited data

Results flagged for a closer look

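Control probe sets for the Cre recombinase, which enter no comparison, carried signal in emN1 above the wild-type arrays. CreX-3 read 434 in emN1 replicate 1 and 409 in emN1 replicate 2, and at most 79.0 in wild-type. CreX-5 read 71.1 and 101 in emN1, under the background limit of 112. The r2-P1-cre-3 probe set read 428 and 349 in emN1 and at most 29.2 in wild-type, and r2-P1-cre-5 read 205 and 93.7 in emN1. Bacterial bio control probe sets on the same arrays had medians of 31.0 and 13.7 in emN1 and 19.5 and 41.8 in wild-type.

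The Y-linked Eif2s3y, left out of the autosomal comparison, read 14000 and 15900 in emN1 and at most 32.2 in wild-type.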

How the results depend on the processing

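None of the 55 named genes past the threshold changed sign under the alternatives that gave it a value. All 135 genes past the threshold had their nearest emN1 and wild-type arrays at least 2-fold apart. Leaving out 1 array, or changing the trend, addend or block, therefore could not reverse a sign. The unchanged signs there are no check of the calls. The autosomal probe sets past the threshold, 154 in all (127 higher, 27 lower), became 45 with no intensity trend, 259 with quantile normalization, 248 with median centring, 59 with the array set as a term and 517 with all 6 arrays, and 38 to 760 with 1 array left out (38 without emN1 replicate 1, 760 without emN1 replicate 2, of which 359 were higher and 401 lower, 142 and 137 without either wild-type array). With the replicate number as a block they became 100; the numbers do not mark pairs, since deviations of same-numbered arrays correlated at -0.188 across 27022 probe sets. The difference of Notch1 did not pass with no intensity trend (-2.15, limma adjusted p = 0.130), with the array set as a term (-2.174, limma adjusted p = 0.0788) or without emN1 replicate 1; its range with 1 array left out was -2.411 to -1.89. Genes at least 2-fold apart, 423 in all, became 752 with no filter on dim probe sets and 631 to 1043 with 1 array left out. Between anN1 and wild-type, 13 probe sets passed, 0 with no intensity trend (974 at an unadjusted limma p under 0.05), 7 without the emN1 arrays and the set term, and 0 to 97 with 1 array left out. Of 55 named genes past the threshold, 35 were lost with no trend, 31 with the set term, 15 with the block, 12 with no filter, 8 with an addend of 1 and 3 with median centring, and 36 and 5 without emN1 replicate 1 and 2 and 18 without either wild-type array. Raising signals to 112, which was added after seeing the data, lost none. Signal over background limits 21 of the 116 higher genes, whose wild-type arrays both lay under 112, so that their folds are lower bounds.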
